A study of Homo sapiens with 9 samples.

Results

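The BEX and TCEAL genes were examined as a family of 10 genes, BEX1, BEX2, BEX3 (NGFRAP1 in older annotation), BEX4, BEX5, TCEAL1, TCEAL3, TCEAL4, TCEAL7 and TCEAL8. They were chosen by name with their differences between the groups of these same arrays already known, so their values here are a description and no p-value is given for them. A probe belonged to a gene when its RefSeq accession mapped to that gene. Of the 10 genes, 9 had a probe, and all 9 were among the 26862 genes tested, through 10 of 32276 tested probes. No probe was assigned to TCEAL3. The cells were HEK293, a line derived from human embryonic kidney, and all groups were stable populations that had been infected with retrovirus carrying a short hairpin RNA, puromycin resistance and GFP. In KD3 the hairpin was shRNA 3 and in KD4 it was shRNA 4, both directed at SmcHD1, and in CTL it was the control hairpin NC5. RNA of each group was hybridized to 3 one-colour Agilent arrays. The methods call the samples biological triplicates without naming separate infections, so p-values measure only the spread between these samples.

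BEX proteins are small adaptor-like proteins named for their expression in brain and their place on the X chromosome, and BEX1 and BEX3 bind the p75 neurotrophin receptor NGFR. TCEAL proteins are named for their likeness to transcription elongation factor A, and both groups belong to 1 mammalian gene cluster on the long arm of the X chromosome. SmcHD1 is a chromatin protein best known for its part in silencing the inactive X chromosome and some clustered autosomal genes. Bulk RNA does not tell apart fewer cells using a gene from less RNA per cell.

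The promoters of BEX5 and BEX1 are shown because these genes had the widest differences between groups in opposite directions. Each sequence is the 250 bases before the RefSeq start of transcription on GRCh38.p14, written 5′ to 3′ on the strand of the gene. Capitals mark the E-box CACGTG in BEX1 and, at a similar distance from the start in BEX5, the letters GACGTG. The promoters were not aligned, so the marked letters are not shown to correspond.
BEX5 (chrX:102155978-102156227, minus strand): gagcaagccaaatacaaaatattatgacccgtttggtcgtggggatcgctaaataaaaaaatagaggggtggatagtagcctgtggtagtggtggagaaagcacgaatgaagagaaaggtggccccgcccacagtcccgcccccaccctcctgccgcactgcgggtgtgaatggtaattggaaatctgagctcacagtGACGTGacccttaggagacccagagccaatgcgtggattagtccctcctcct
BEX1 (chrX:103064172-103064421, minus strand): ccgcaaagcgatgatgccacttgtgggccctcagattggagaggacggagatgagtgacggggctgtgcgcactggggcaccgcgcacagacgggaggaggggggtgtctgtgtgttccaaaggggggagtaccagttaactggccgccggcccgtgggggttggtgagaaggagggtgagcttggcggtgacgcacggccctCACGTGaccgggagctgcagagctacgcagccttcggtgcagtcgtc
Shorter windows of 50 bases around the E-box are shown as examples for BEX3, TCEAL1 and TCEAL8, and for the related TCEAL5 and TCEAL6. BEX3 and TCEAL1 are each shown at the second listed start. In these windows the E-box began between 31 and 56 bases before the start. The related TCEAL2, at 52 bases, is not shown, and other genes had other distances, given below. Capitals mark CACGTG.
BEX3 (chrX:103376469-103376518, plus strand): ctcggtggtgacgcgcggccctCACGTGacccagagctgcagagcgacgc
TCEAL1 (chrX:103628897-103628946, plus strand): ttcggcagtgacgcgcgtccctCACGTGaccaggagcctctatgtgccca
TCEAL8 (chrX:103255159-103255208, minus strand): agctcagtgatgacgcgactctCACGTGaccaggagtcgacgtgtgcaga
TCEAL5 (chrX:103276769-103276818, minus strand): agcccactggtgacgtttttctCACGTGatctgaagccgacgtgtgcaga
TCEAL6 (chrX:102142501-102142550, minus strand): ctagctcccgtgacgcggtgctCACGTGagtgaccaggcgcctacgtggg

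The motifs were chosen after the promoters had been read, and they were searched on both strands from 250 bases before to 50 bases after each start. CACGTG, which reads the same on both strands, was present in the promoter of 8 of the 9 genes with an entry in the RefSeq promoter table. BEX5 was the exception, and TCEAL7 had no entry. Counted by window, 9 of 14 windows of these genes held CACGTG, against 7.26% of all 35116 promoters of that length and 9.71% of the 1236 on the X chromosome. The longer palindrome TCACGTGA, which contains CACGTG, was in 6 of the 14 windows, against 0.98% of all promoters and 2.02% of those on the X chromosome. The half-site of the cyclic AMP response element, TGACG or its reverse complement CGTCA, was in 11 of the 14 windows, against 24.6% and 29.9%. In BEX5 a match to TGACG overlapped the letters in capitals. In BEX1 and in the second start of BEX3 the E-box began 47 bases before the start, and in TCEAL1 it began 56 and in TCEAL8 31 bases before it. It began 80 bases before the start in TCEAL3, 10 in TCEAL4, 19 in BEX2 and 19 at the second start of BEX4. At the first start of BEX4 it began at position -3, so the distance was not the same throughout the family. The 14 windows held between 5 and 32 CpG dinucleotides, where the median of all promoters was 14. BEX1 had 25 of them and BEX5 14 and 13 at its 2 starts. Windows of 1 gene overlap and the genes are related copies, so these matches are not independent. They are a description of letters and neither a bound site nor a cause of the expression values.

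**Figure D1:**
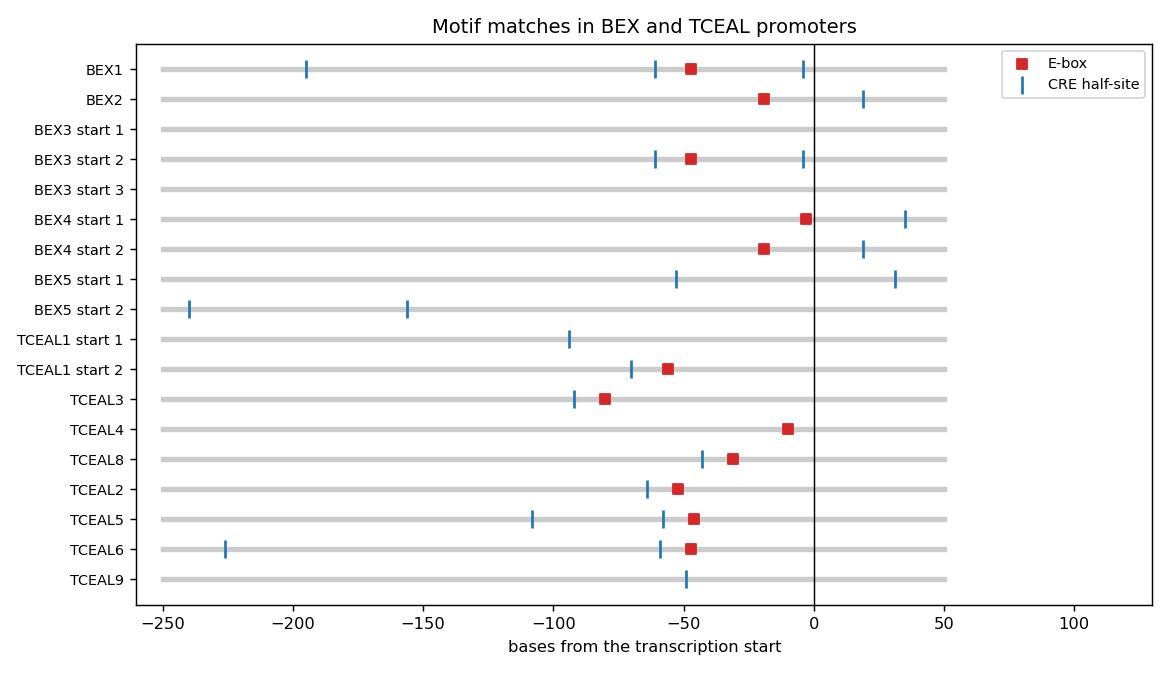
Places of the E-box CACGTG (squares) and of the TGACG half-site on either strand (ticks), in bases from the transcription start, for each RefSeq promoter of the BEX and TCEAL genes. Most genes have a square between the start and 80 bases before it, while BEX5 and TCEAL9 have ticks alone.

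On the 9 arrays the median processed signal lay between 119.6 and 181.4, between 75.1% and 79.8% of probes were well above background, and no spot was saturated. With 3 arrays a group, precision is limited by their number. The targeted SMCHD1 transcript fell with both hairpins. Its brightest probe read below every CTL array on each of the 6 knock-down arrays, and KD3 differed from CTL by -0.97 ± 0.0897 (log2 fold change, SE) and KD4 by -1.53 ± 0.0897 (limma adjusted p = 0.00021 and 1.8e-05, n = 3 arrays a group). A two-sided exact permutation test of 6 against 3 arrays gave p = 0.0119, the smallest it can give. Of 6 HEK293 markers all were tested, and NEFM and PAX2 were lower in both knock-downs, PAX2 through 1 of its 2 probes. Of 13 markers of other cells, 11 were tested and PMEL was lower in both (log2 fold change -1.35 in KD3 and -1.15 in KD4, adjusted p 2e-05 and 3.8e-05). The neuronal marker SYP was lower in KD3 at -1.27 (adjusted p = 0.0038) and stayed under 1.8-fold in KD4 at -0.68 (adjusted p = 0.04). The other neuronal markers were not called. STMN2 differed by 0.35 in KD3 and 0.63 in KD4 (adjusted p = 0.3 and 0.059), and SNAP25 by -0.07 and 0.15 (adjusted p = 0.56 and 0.14). ALB and MLANA were not well above background throughout any group. Whether these marker differences bear on the BEX and TCEAL values was not tested.

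A call required a difference of 1.8-fold or more together with an adjusted p (limma, Benjamini-Hochberg over all tested probes) under 0.05. In KD3, 1 of the 9 genes was called higher (BEX5) where 1.24% of all tested genes were, and 1 was called lower (BEX1) where 2.43% were. In KD4, BEX5 and TCEAL7 were called higher where 1.57% of genes were, and none was called lower where 3.53% were. Only BEX5 was called higher in both knock-downs, as were 0.823% of all genes, and none was called lower in both, as were 1.83%. Between the hairpins, BEX1 and BEX5 were called higher in KD4 than in KD3 (0 genes by the methods' t-test), where 0.220% of genes were called higher and 0.283% lower. All 3 KD3 arrays lay above all 3 CTL arrays for 5 of the 9 genes, against 19.8% of all genes, and all 3 KD4 arrays did so for 6, against 25.1%. A gene was counted, among these genes and among all, where any of its tested probes lay so, and TCEAL8 entered the KD4 count only through its dimmer probe. Because the genes were selected on these contrasts, nothing is read from these counts.

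**Figure D2:**
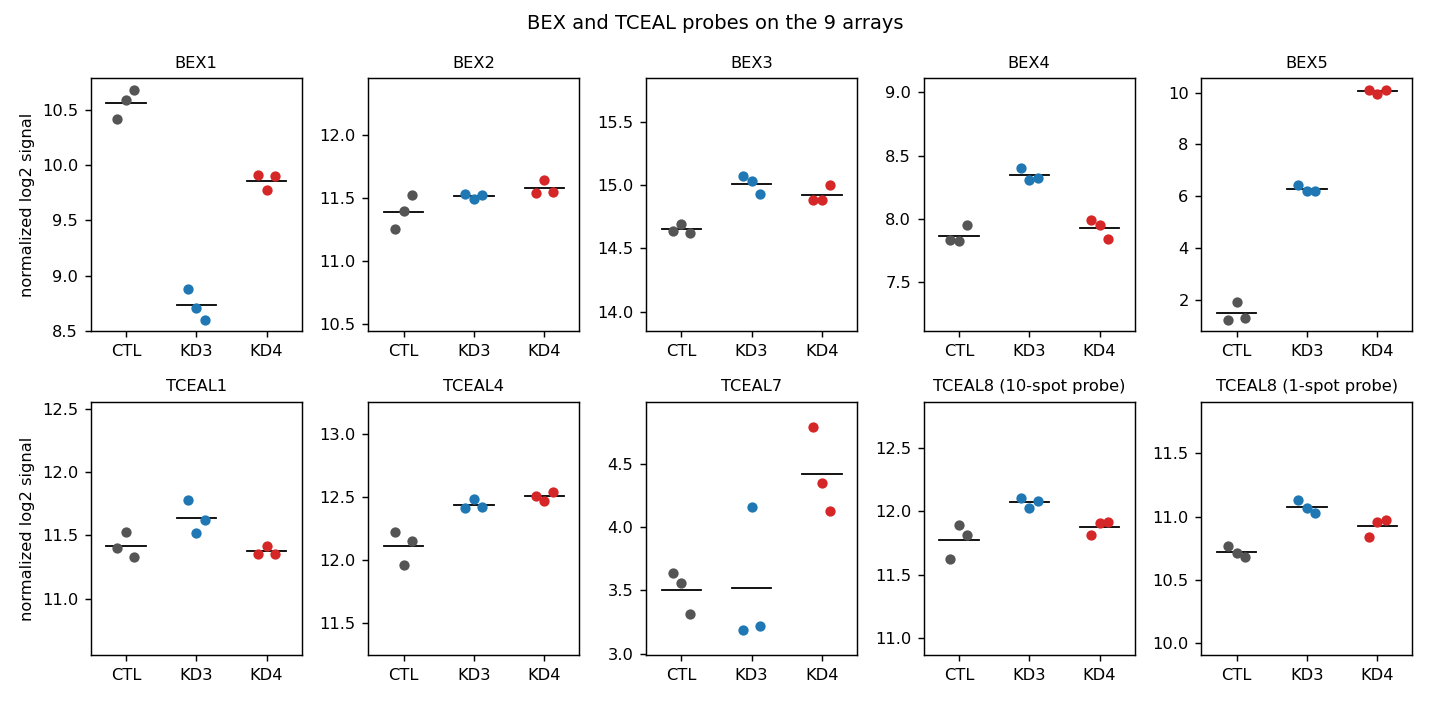
Normalized log2 signal of each BEX and TCEAL probe (y axis, scaled separately for each panel and spanning at least 2 log2 units) on the 3 arrays of CTL, KD3 and KD4, with the group mean as a line. BEX5 is lowest in CTL and highest in KD4, BEX1 is lowest in KD3, and most other panels shift by less than 0.5.

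BEX5, a BEX protein of little-known function, had the widest differences. Its normalized log2 signal was 1.22, 1.89 and 1.28 on the CTL arrays, 6.42, 6.20 and 6.19 on the KD3 arrays and 10.09, 9.95 and 10.11 on the KD4 arrays. The groups did not overlap, and the 3 CTL arrays were all not well above background. The CTL level is therefore a bound. The lowest signals called well above background on the CTL arrays were 2.24, 2.44 and 2.41, and measured against them BEX5 was at least 15.0-fold higher in KD3 and at least 206-fold higher in KD4. The fitted log2 differences from CTL were 4.80 and 8.58 (SE 0.168), and they rest on the CTL values below that limit. With normexp background correction and an offset of 50 added to each signal, they were 1.16 and 4.11, and the cause was not tested. KD4 exceeded KD3 by 3.78 on the log2 scale, 13.7-fold, and both of these groups were well above background on all arrays. The arrays lay on 2 slides with all groups on each, and the difference from CTL was 4.61 and 5.08 in KD3 and 8.44 and 8.87 in KD4 within them. Here and below, the first value is from slide 1, where KD3 had a single array. The second value is from slide 2, where CTL and KD4 had a single array each.

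BEX1, which binds NGFR and links neurotrophin signalling to the cell cycle, differed in the other direction. The signal was 10.42, 10.59 and 10.68 in CTL, 8.88, 8.71 and 8.60 in KD3 and 9.91, 9.77 and 9.90 in KD4. KD3 was lowest, KD4 lay between, and no pair of groups overlapped. KD3 differed from CTL by -1.83 ± 0.100 (log2 fold change, SE), 0.28 of the CTL level. KD4 differed by -0.71 ± 0.100, 0.613 of that level, and stayed short of the fold threshold. KD4 exceeded KD3 by 1.13 on the log2 scale, 2.18-fold. Within the slides the KD3 difference was -1.93 and -1.68 and the KD4 difference -0.80 and -0.51. SMCHD1 itself was lower in KD4 than in KD3, by 0.56 on the log2 scale for its brightest probe (adjusted p = 0.019, under 1.8-fold). The hairpin with less SMCHD1 transcript had the smaller absolute difference from CTL in BEX1, BEX3, BEX4, TCEAL1 and TCEAL8. It had the larger one in BEX5, BEX2, TCEAL4 and TCEAL7. In several of these genes the hairpins differed little, and a relation to the SMCHD1 level was not tested.

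BEX3, which binds NGFR and is also known as NADE, read 14.64, 14.69 and 14.62 in CTL, 15.07, 15.03 and 14.93 in KD3 and 14.88, 14.88 and 15.00 in KD4. All 6 knock-down arrays were above the CTL arrays, by 0.36 in KD3 and 0.27 in KD4 (SE 0.0701). BEX4 read 7.83, 7.82 and 7.95 in CTL, 8.40, 8.31 and 8.32 in KD3 and 7.99, 7.95 and 7.84 in KD4. KD3 stood apart from both other groups, 0.48 above CTL, while KD4 overlapped CTL with a difference of 0.06 (SE 0.0723). KD4 lay below KD3 by 0.42 on the log2 scale. In order of mean level, BEX4 was thus lowest in CTL and in KD4, which did not separate, and highest in KD3. BEX2, a partner of the transcription factor LMO2, read 11.25, 11.40 and 11.52 in CTL, 11.53, 11.49 and 11.52 in KD3 and 11.54, 11.64 and 11.55 in KD4. It differed from CTL by 0.12 in KD3 and 0.18 in KD4 (SE 0.0813). With normexp these differences were 0.00131 and 0.0426. Its KD3 arrays overlapped the CTL arrays, and its KD4 arrays lay just above them, with 11.54 as the lowest KD4 value and 11.52 as the highest CTL value. None of these 3 genes reached 1.8-fold.

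Among the TCEAL genes, TCEAL7 was dim. It read 3.64, 3.56 and 3.31 in CTL, 3.19, 4.16 and 3.22 in KD3 and 4.79, 4.35 and 4.13 in KD4. KD4 lay above CTL on every array, while KD3 overlapped both groups through its replicate 2. Of the 3 arrays in each group, the probe exceeded background clearly on 1 in CTL, 1 in KD3 and 3 in KD4, so it was tested only because of KD4. KD4 differed from CTL by 0.92 ± 0.270 (log2 fold change, SE) and KD3 by 0.02 ± 0.270. The KD4 call was lost without KD4 replicate 1, without KD4 replicate 2 and without any 1 of the CTL arrays. It was also lost with no filter on dim probes and with the methods' t-test, which left the fold change as it was, and with normexp, where the log2 fold change was 0.174. Within the slides the KD3 difference was 0.73 and -0.44, opposite in sign, and the KD4 difference 0.81 and 1.15.

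TCEAL4 read 12.22, 11.96 and 12.15 in CTL, 12.41, 12.48 and 12.42 in KD3 and 12.51, 12.47 and 12.54 in KD4. Every knock-down array lay above every CTL array, by 0.33 and 0.40 on average (SE 0.0799). TCEAL8 had 2 probes. The probe with 10 spots read 11.62, 11.89 and 11.81 in CTL, 12.11, 12.03 and 12.08 in KD3 and 11.81, 11.91 and 11.92 in KD4. The single-spot probe read 10.77, 10.71 and 10.68 in CTL, 11.13, 11.07 and 11.03 in KD3 and 10.84, 10.96 and 10.97 in KD4. They differed from CTL by 0.30 and 0.36 in KD3 and by 0.11 and 0.21 in KD4. Both probes had all KD3 arrays above CTL, and of these probes only the single-spot one had all KD4 arrays above it. On both, KD4 lay below KD3 on every array, by 0.19 and 0.15 on the log2 scale. TCEAL1, a nuclear phosphoprotein that modulates promoter activity, read 11.40, 11.53 and 11.33 in CTL, 11.78, 11.52 and 11.62 in KD3 and 11.35, 11.42 and 11.35 in KD4. It differed from CTL by 0.22 in KD3 and -0.05 in KD4 (SE 0.0861), and both groups overlapped CTL, while all KD4 arrays lay below the KD3 arrays. Over all 9 genes, log2 fold changes had a median of 0.299 for KD3 and 0.183 for KD4, beside 0.00906 and 0.0437 over all tested genes.

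**Figure D3:**
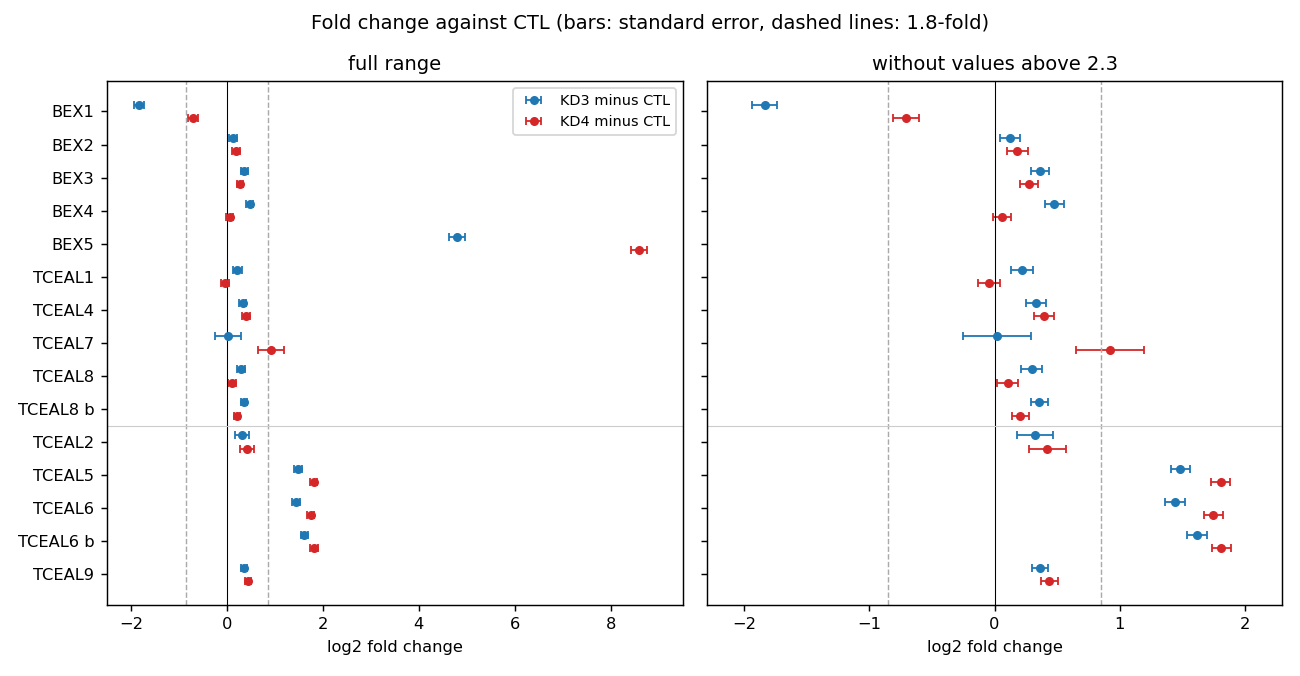
Log2 fold change against CTL with its standard error for each BEX and TCEAL probe in KD3 (blue) and KD4 (red), at full range on the left and without BEX5 on the right, with the 1.8-fold threshold as dashed lines. BEX5, TCEAL5 and TCEAL6 lie beyond the upper threshold with both hairpins and BEX1 beyond the lower one in KD3 only; the BEX5 values rest on CTL signals not well above background.

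The other TCEAL genes were examined for comparison. Of TCEAL2, TCEAL5, TCEAL6 and TCEAL9, all 4 were tested, and 2 were called higher in both knock-downs, of which the methods' t-test called 1. TCEAL5 read 6.55, 6.66 and 6.57 in CTL, 8.16, 8.04 and 8.02 in KD3 and 8.34, 8.35 and 8.51 in KD4. It rose by 1.48 in KD3 and 1.81 in KD4 on the log2 scale (limma adjusted p = 1.3e-05 and 3.5e-06). Both TCEAL6 probes rose, by 1.44 and 1.62 in KD3 and by 1.75 and 1.81 in KD4 (adjusted p between 3.8e-06 and 1.4e-05). TCEAL5 and TCEAL6 were picked by the study on these arrays, so their direction is not independent evidence. TCEAL9 shifted by 0.36 and 0.44 (adjusted p = 0.006 and 0.0018) and stayed under 1.8-fold, and TCEAL2 differed by 0.33 and 0.42 without passing the test (adjusted p = 0.16 and 0.06).

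Along the X chromosome the genes with the widest differences were not all next to each other. In RefSeq order, TCEAL6 and BEX5 were neighbours among the tested genes, followed by TMSB15A at 0.11 in KD3 and 0.68 in KD4, which was not called. BEX1 came later, between RAB40AL (-0.22 and -0.13) and NXF3 (-0.43 and -0.31). TCEAL5 lay between TCEAL8 (0.30 and 0.11) and BEX2 (0.12 and 0.18). Tested neighbouring genes of other families numbered 17, interleaved with the BEX and TCEAL genes or within 10 genes with probes on either side. Limma called 0 of the 17 in either knock-down, and the methods' t-test called 0 in both knock-downs together. An unadjusted limma p under 0.05 was found for 8 in KD3 and 9 in KD4. Over all 26862 tested genes, 9454 in KD3 and 11561 in KD4 had such a p, so nothing is read from these counts. Of 9 ARMCX and GPRASP genes, which lie in the same stretch and encode armadillo-repeat and receptor-sorting proteins, 5 were tested and limma called 0 in both, with an unadjusted p under 0.05 for 3 in KD3 and 4 in KD4, and 0 by the methods' t-test. ARMCX1 was higher in KD3, by 0.86 (adjusted p = 0.0095), with 0.78 in KD4 (adjusted p = 0.011), which stayed under 1.8-fold. The count called in both was 1 without KD4 replicate 1, without CTL replicate 1 or without CTL replicate 2. GPRASP3 differed by 0.47 and 0.45, GPRASP2 by 0.29 and 0.20, ARMCX5 by 0.03 and -0.33 and GPRASP1 by 0.13 and -0.33, none of them 1.8-fold. The remaining ARMCX genes were not well above background on all arrays of any group and were not tested. ARMCX3 among them read 1.12, 1.35 and 1.09 in CTL, 2.94, 3.07 and 1.09 in KD3 and 4.01, 3.93 and 3.39 in KD4. It was well above background on 2 KD4 arrays and on no array of the other groups. ARMCX4 was so on a single KD3 array and ARMCX6 on a single CTL array.

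**Figure D4:**
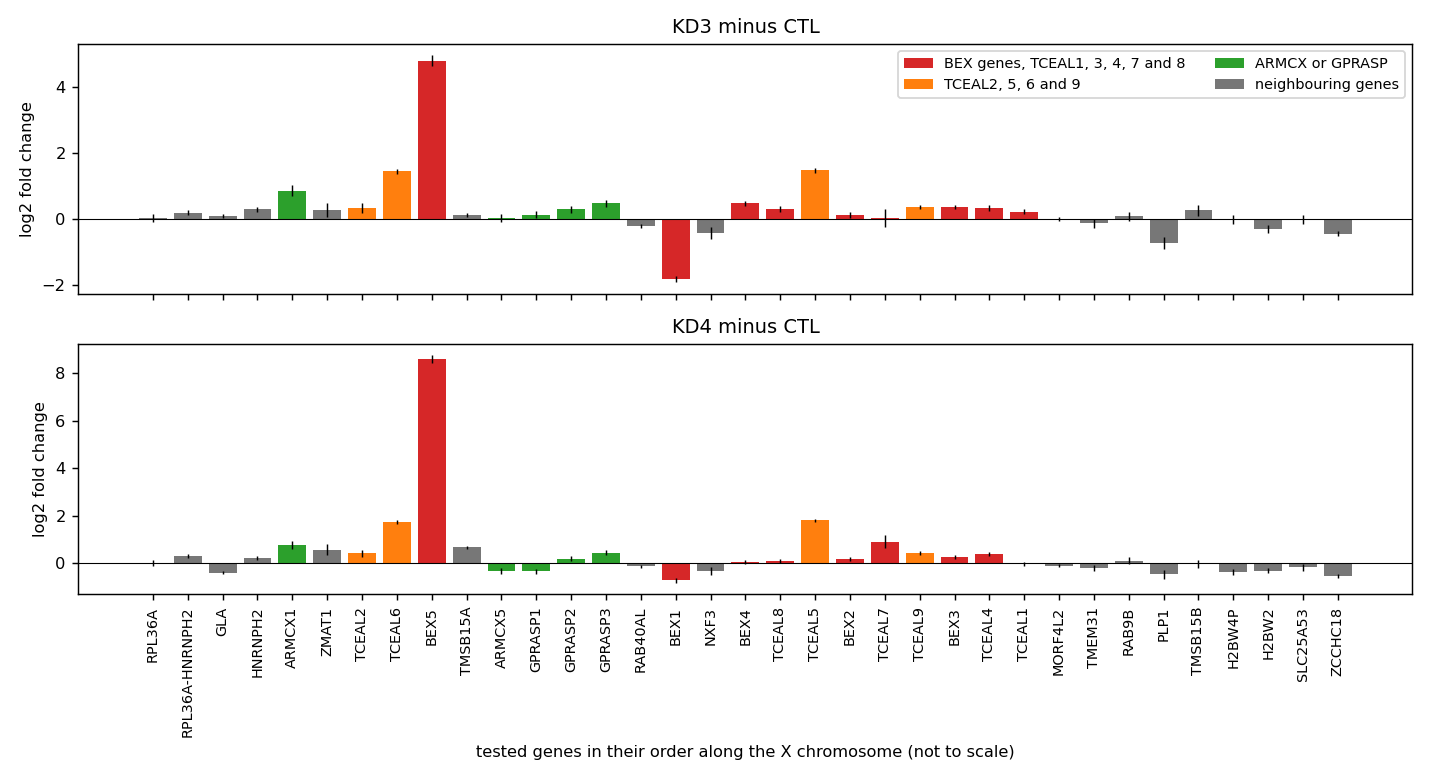
Log2 fold change in KD3 (upper panel) and KD4 (lower panel) with its standard error for the tested genes in their order along the X chromosome, coloured by gene family; spacing is not to scale. TCEAL6, BEX5 and TCEAL5 stand above their neighbours and BEX1 below them, and bars of the neighbouring genes in grey stay within -0.73 and 0.68.

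A list of 26 genes joined known partners of BEX proteins with genes of neurotrophin receptor signalling, and 25 of them were tested. Limma called 7 of them lower with both hairpins, where 1.83% of all tested genes were, and 0 higher, where 0.823% were. Genes that rose by less than 1.8-fold are not in this count. The median log2 fold change over the list was -0.0887 in KD3 and -0.105 in KD4. The methods' t-test called 0 of them and normexp 3. SORCS1, a sorting receptor of the sortilin family, fell through both probes, with -2.31 in KD3 and -1.16 in KD4 for the brighter one (adjusted p = 2.4e-05 and 6.7e-04). NTRK2, the receptor for brain-derived neurotrophic factor, fell through 1 probe, with log2 fold changes of -2.20 in KD3 and -2.15 in KD4 (adjusted p = 5.8e-05 and 4.9e-05), while its other tested probe read 0.08 and 0.20. NTRK3, the receptor for neurotrophin-3, fell through 1 of 3 tested probes, with -1.41 and -1.20 (adjusted p = 8.7e-04 and 0.0015). LINGO1, a co-receptor of NGFR, fell through both of its probes, with -0.94 and -1.35 for the brighter one (adjusted p = 3.5e-04 and 4.3e-05) and -1.14 and -1.44 for the dimmer one (adjusted p = 0.0065 and 0.0016). BDNF, NTF4 and SORCS2 made up the rest. The called SORCS2 probe was well above background on 3 CTL, 0 KD3 and 0 KD4 arrays, so it was tested only because of CTL. The other SORCS2 probe was too dim to be tested, and its mean was 2.84 in CTL, 2.81 in KD3 and 4.36 in KD4. NGFR and LMO2, the partners of BEX proteins named above, were not among those called. NGFR was at -0.59 in KD3 (adjusted p = 0.007) and -0.03 in KD4 (adjusted p = 0.89), under 1.8-fold. LMO2 was at -0.31 in KD3 (adjusted p = 0.027) and -0.49 in KD4 (adjusted p = 0.0027), also under 1.8-fold. Of 23 tested genes of the elongation machinery, limma called 0 in both knock-downs, and the methods' t-test also called 0. An unadjusted limma p under 0.05 was found for 10 in KD3 and 13 in KD4. Over all 26862 tested genes, 9454 in KD3 and 11561 in KD4 had such a p. TCEA2, an elongation factor A gene, was called lower in KD3, at -0.93 (adjusted p = 1e-04), and stayed under 1.8-fold in KD4, at -0.56 (adjusted p = 9.5e-04).

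The patterns over the 9 arrays were compared within each family by Pearson correlation, as a description. Over arrays that share their hybridization and normalization, BEX2, BEX3 and BEX5 correlated with the mean of the other BEX genes at 0.734, 0.652 and 0.712, BEX4 at 0.112 and BEX1 at -0.791. For TCEAL4 and TCEAL8 the values were 0.535 and 0.508, for TCEAL1 0.107 and for TCEAL7 -0.128. The tested genes outside the family whose signal was most like the mean BEX profile were UTP23 (0.990), CBX1 (0.989) and SMPX (0.985). For the TCEAL profile they were EOLA1-DT (0.992), DMRTA1 (0.991) and ASPM (0.991). With 3 groups and 26862 genes to choose from, high values of this kind are given without a test.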

How the data were processed

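RNA of the 9 samples was hybridized to one-colour Agilent human expression arrays. The authors deposited the intensity of every spot, from Agilent Feature Extraction 10.10.1.1 per the file headers (10.10 in the submitters' processing notes), with background already subtracted from the green processed signal. A second deposited table holds the authors' own quantile-normalized log2 signals and served as an alternative. From the intensities, control and outlier-flagged spots were left out (260 to 634 of 58717 spots an array), log2 values of the 9 arrays were brought to a common distribution by quantile normalization, and spots of a probe were averaged. Of 42405 probes, 21 that lacked a value on at least 1 array were removed and 25422 were named through a RefSeq accession. Probes well above background on all arrays of at least 1 group were tested with limma 3.58.1 in R 4.3.3 (functions lmFit and eBayes, with 1 mean per group). The fit was tested on simulated data.

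The family members and the gene lists were chosen with earlier results of these data known. All members were named, with every tested gene of the other TCEAL genes and of the ARMCX and GPRASP genes, up to 4 genes of each further list called in both knock-downs with the largest change, and the 3 genes most like each family profile. Other genes named were chosen after their values were seen. Where all arrays of a group were not well above background, a fold was computed against the lowest signal well above background on each array. Alternatives were the 75th percentile, normexp with an offset of 50, the deposited log2 table, other filters, the methods' t-test, no fold threshold, replicate and slide blocks, other fits and leaving out each array.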

Additional observations from a re-analysis of the deposited data

Results flagged for a closer look

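These differences between the 2 hairpins stood out, each the direct contrast of KD4 with KD3 on the log2 scale. BEX1 was higher in KD4 than in KD3 by 1.13 and BEX5 by 3.78, which are descriptions, since these genes were selected on the same arrays. SORCS1, which fell with both hairpins, was higher in KD4 than in KD3 by 1.15 through its brighter probe and by 0.86 through the other (limma adjusted p = 0.0078 and 0.014).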

How the results depend on the processing

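Of 200 counts and SMCHD1 values recomputed under 20 alternatives, 177 stayed the same by the criteria used, 23 moved and 0 reversed. Of 392 fold changes of the BEX and TCEAL genes, 369 moved by less than 1 SD between replicates, 23 by more, and 0 of the called ones reversed. The genes called in KD4 against CTL, 2 in the main analysis, numbered 1 with normexp, with no filter on dim probes and with the methods' t-test, 0 when probes had to be well above background on all 9 arrays, which leaves BEX5 and TCEAL7 untested, and 5 with no fold threshold. Those called in KD3 numbered 1 with that filter and 6 with no fold threshold, and those called between KD4 and KD3 numbered 1 with that filter and 0 with the t-test. The t-test also gave 1 of the other TCEAL genes and 0 of the neurotrophin list, where normexp gave 3. With no fold threshold, 2 ARMCX or GPRASP genes, 1 neighbouring gene and 4 elongation genes were called. Leaving out each array gave 2 genes in KD3 each time, between 1 and 2 in KD4, between 2 and 3 between the hairpins, between 0 and 1 of the ARMCX and GPRASP genes and between 5 and 7 of the neurotrophin list. With normexp the BEX5 difference was 1.16 in KD3 and 4.11 in KD4, and the cause was not tested. Differences of group means within each slide were added after the data had been seen.

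The replicate block gave 2 genes called in KD3 and 2 in KD4, as without it, and changed no other count by over 1.5 times. Samples of the same number did not deviate together, with correlations between -0.0775 and 0.143, so the numbers were not taken to pair the samples. Probe sequences were not used here, and TCEAL genes are similar in sequence, so cross-hybridization between them was not tested. Dim probes such as TCEAL7 are limited by signal over background.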
